A study of Rattus norvegicus with 3 samples.

Results

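The 36 genes described here encode proteins of the mitotic spindle and kinetochore and the kinases, cyclins and ubiquitin ligase partners that drive a cell through mitosis. They were taken by symbol from the gene list of the deposited files, where all 36 were found among 29772 features. They were followed in wild-type rat embryos (Rattus norvegicus), whose cerebral cortex was dissociated with papain and profiled by droplet single-cell RNA sequencing with the 10x Genomics 3′ chemistry. The 3 libraries are labelled embryonic day 14, 16 and 18 and are called E14, E16 and E18 below after those labels. Each label has 1 library, so no difference has a replicate check, no test was made, and every interval is an exact 95% interval that covers counting error only. The protocol text in the labels also describes cultured and multiplexed cells and a sort of human cells, which do not match rat embryonic tissue, and which of those steps applied here is not known.

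When a progenitor enters mitosis, Cdk1 bound to its cyclins condenses the chromosomes and starts spindle assembly, kinesin motors and crosslinkers shape the microtubules, and kinetochores tie each chromatid to them. The spindle checkpoint holds the anaphase-promoting complex back until every kinetochore is attached. The complex then marks cyclins and securin for destruction, the chromatids part, and the central spindle directs cytokinesis. In the embryonic cortex the main dividing cells are radial glia, the stem cells whose nuclei divide at the ventricular surface, and intermediate progenitors, their Eomes-expressing daughters, which divide mostly away from it and give rise to neurons. Many of these genes are held silent in quiescent cells by the DREAM complex and switched on in G2 by B-Myb, MuvB and FoxM1, through a promoter element called the cell cycle genes homology region (CHR) and through CCAAT boxes bound by NF-Y.

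Promoter windows of RefSeq (assembly GRCr8, 250 bases before to 50 after the annotated start) were found by symbol for 32 of the 36 genes, giving 33 windows because Kif2c has 2. Ccna2, Aurkb, Tpx2 and Ube2c had no entry. The CHR core TTTGAA, searched on both strands, occurred in 22 of the 33 windows (66.7%) and in 18.3% of all 33469 windows of the table. CCAAT, searched on both strands, occurred in 25 windows (75.8%) against 37.5% of all windows, and at least 2 copies occurred in 19 (57.6%) against 11.2%. TTTGAA and CCAAT stood together in 18 windows (54.5%) against 7.41%. In the windows of Cdca8 and Mki67 a match of each motif shares bases with one of the other. The median GC content was 58.7% in the genes' windows and 51.7% in all windows. A match describes these letters and is not a measured binding site.

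The 180 bases from 160 before the start base to 19 after it are shown for 7 genes on which the results below turn, with TTTGAA and CCAAT (or their reverse complements) in capitals. Ccnb2, Prc1 and Sgo1 lay at the ends of the comparisons of radial glia. Spc24 and Spc25 are partners in the kinetochore whose shares differed in opposite directions between the progenitor classes. For Spc24 that direction turned in E14 and E18 under some other ways of filtering or clustering the cells. Cdk1 and Top2a are shown as members whose share changed less than that of Ccnb2.
Ccnb2: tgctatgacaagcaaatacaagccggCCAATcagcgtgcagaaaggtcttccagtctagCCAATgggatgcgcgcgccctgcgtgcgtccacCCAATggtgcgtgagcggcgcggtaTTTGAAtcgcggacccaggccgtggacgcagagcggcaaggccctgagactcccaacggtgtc
Prc1: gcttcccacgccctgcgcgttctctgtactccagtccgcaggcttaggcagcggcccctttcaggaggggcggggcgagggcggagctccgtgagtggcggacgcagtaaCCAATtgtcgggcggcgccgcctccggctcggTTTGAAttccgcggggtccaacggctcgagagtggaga
Sgo1: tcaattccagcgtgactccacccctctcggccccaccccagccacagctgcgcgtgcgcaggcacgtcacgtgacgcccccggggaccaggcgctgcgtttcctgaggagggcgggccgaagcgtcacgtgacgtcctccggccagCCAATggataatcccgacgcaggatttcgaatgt
Spc24: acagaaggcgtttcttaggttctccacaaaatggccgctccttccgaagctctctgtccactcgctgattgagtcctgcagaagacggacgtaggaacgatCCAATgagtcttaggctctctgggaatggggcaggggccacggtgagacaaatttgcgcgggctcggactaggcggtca
Spc25: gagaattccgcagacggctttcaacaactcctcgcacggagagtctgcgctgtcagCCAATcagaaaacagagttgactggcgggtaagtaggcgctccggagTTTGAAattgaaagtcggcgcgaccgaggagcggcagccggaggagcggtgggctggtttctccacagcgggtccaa
Cdk1: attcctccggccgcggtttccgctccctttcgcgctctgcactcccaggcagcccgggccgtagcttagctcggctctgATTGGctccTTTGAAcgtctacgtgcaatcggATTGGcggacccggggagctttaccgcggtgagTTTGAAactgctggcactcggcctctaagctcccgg
Top2a: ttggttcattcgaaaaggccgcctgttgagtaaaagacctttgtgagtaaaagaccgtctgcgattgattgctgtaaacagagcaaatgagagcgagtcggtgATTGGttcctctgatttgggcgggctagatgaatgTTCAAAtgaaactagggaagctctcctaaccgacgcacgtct
In GRCr8 these stretches are Ccnb2 chr8:79981639-79981818 on the minus strand, Prc1 chr1:143659321-143659500 on the plus strand, Sgo1 chr9:6924396-6924575 on the minus strand, Spc24 chr8:28581280-28581459 on the minus strand, Spc25 chr3:74396699-74396878 on the minus strand, Cdk1 chr20:19265133-19265312 on the plus strand and Top2a chr10:84473074-84473253 on the minus strand. The Ccnb2 stretch held 3 CCAAT boxes with starts 33 and 33 bases apart, followed by 1 TTTGAA. Cdk1 held 2 CCAAT boxes, 32 bases apart, and 2 TTTGAA elements. Prc1, Spc25 and Top2a each held 1 of either motif, whereas Sgo1 and Spc24 held a CCAAT box and no TTTGAA in the stretch shown.

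The cells kept numbered 4286, 4977 and 5431 in label order, with medians of 11199.5, 12264 and 10477 unique molecular identifiers (UMIs, each counting 1 captured transcript) per cell. Between libraries, 12 to 17 barcodes were shared, 7 or 8 of them among kept cells. Genes of early and late radial glia followed another order than the labels. All 8 late genes, such as Aldoc, were highest in the radial glia of E14 and lowest in those of E16, and 5 of 7 early genes, such as Hmga2, were highest in E16 and lowest in E14. Hmga2 stood at 13.1, 223 and 21.7 UMIs per 1000000 UMIs of the class (CPM) in label order, and Aldoc at 744, 16.6 and 239 CPM. Every direction below is therefore one between libraries as labelled and not between known ages. Cell classes were rebuilt by clustering and named from markers. The radial glia of the 3 libraries fell into different clusters: 317 of 353 in E14 lay in a cluster led by Tnc and Fabp7, 1215 and 1073 of 2829 in E16 in clusters led by H4f3 and by Ung, and 887 and 700 of 1748 in E18 in clusters led by Mfge8 and by Nusap1. The classes carried their defining genes. Sox2 was at 871, 485 and 732 CPM in radial glia against 306, 178 and 183 CPM in intermediate progenitors. Eomes was at 1126, 843 and 1100 CPM in intermediate progenitors against 78.3, 16.5 and 47.4 CPM in radial glia. Pax6 separated the classes less, at 308, 185 and 263 CPM in radial glia and 266, 114 and 169 CPM in intermediate progenitors.

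Summed over the 36 genes, radial glia and intermediate progenitors stood far above the neurons measured in the same library. In radial glia the sum was 8216 CPM (8138 to 8293) in E14, 6870 CPM (6845 to 6894) in E16 and 7260 CPM (7227 to 7294) in E18. In intermediate progenitors it was 4529 CPM (4474 to 4584), 8450 CPM (8370 to 8532) and 5522 CPM (5485 to 5560). Newborn excitatory neurons held 215 CPM in E14 and 184 CPM in E18, and maturing excitatory neurons 90.1 and 186 CPM. The last value rests on 84 cells. Another 330 cells of E18, led by LOC103691223, Hs3st4 and Cdh13, matched maturing neurons best by markers but stayed without a class name. These held 119 CPM. E16 had too few newborn and maturing excitatory neurons for a value. Its Cajal-Retzius cells, early neurons that do not divide, held 592 CPM, and its unnamed cells led by Calb1, Calb2 and Lhx9 held 397 CPM. These cells serve as the background of their own library, and the classes that give it in E16 are not those of E14 and E18.

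**Figure D1:**
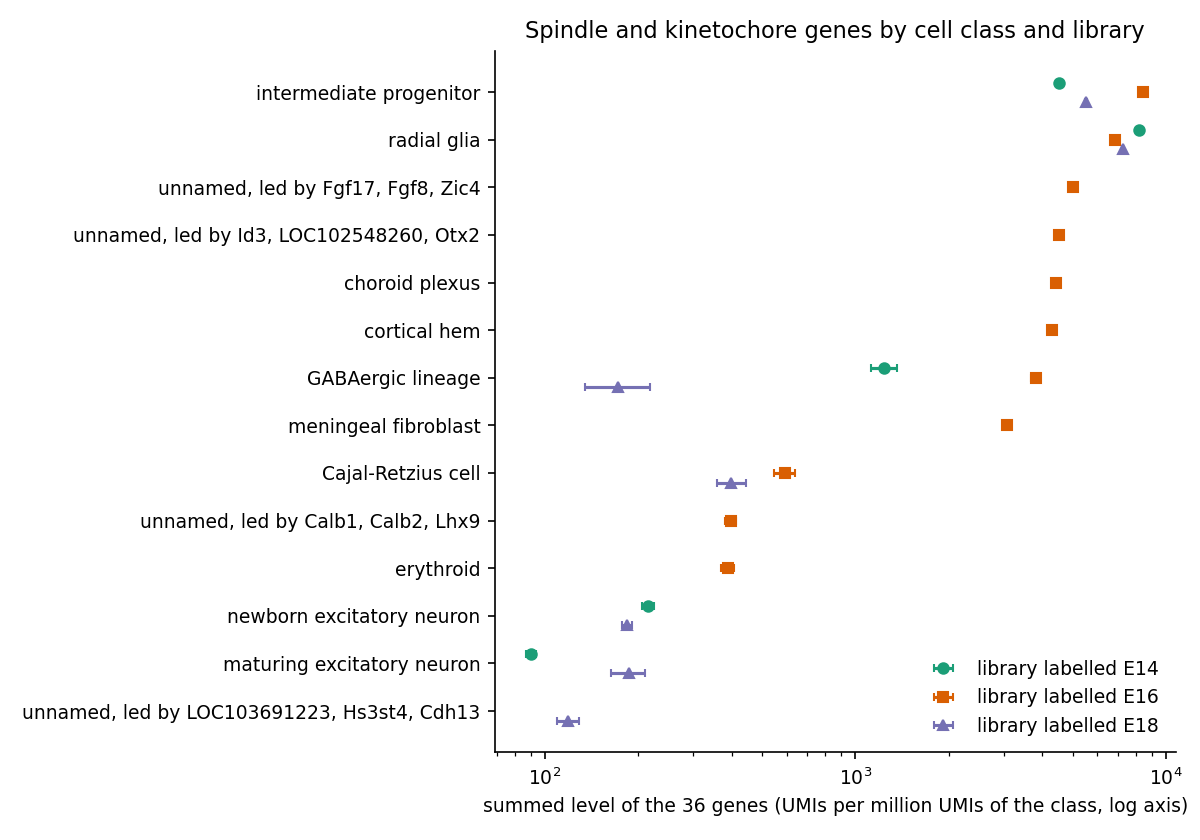
Summed level of the 36 genes in CPM (log axis) in each cell class with at least 50 cells, 1 point per library with its exact Poisson 95% interval. The progenitor classes lie between 4529 and 8450 CPM and the newborn and maturing excitatory neurons of E14 and E18 between 90.1 and 215 CPM, with Cajal-Retzius cells at 592 and 399 CPM.

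Several other classes and unnamed clusters of E16 also carried these transcripts. Cells led by Fgf17, Fgf8 and Zic4, which matched radial glia best by markers but stayed without a class name, held 5024 CPM (349 cells). Choroid plexus cells held 4421 CPM (87 cells), cortical hem cells 4305 CPM (70 cells), unnamed cells led by Id3 4518 CPM (76 cells) and meningeal fibroblasts 3070 CPM (109 cells). Cells of the GABAergic lineage held 1235 CPM in E14 (56 cells), 3803 CPM in E16 (105 cells) and 172 CPM in E18 (71 cells). The E14 value rests on few cells, since after thinning to 2000 UMIs 75% of them held no UMI of the list and 1 cell, with 47, was the only one to reach 5. In E16, 101 of them lay in a cluster led by Dlx1, Gad2 and Isl1, whereas 55 of E14 and 71 of E18 lay in another led by Sst, so the values compare largely different cells. Cajal-Retzius cells of E18 held 399 CPM, below those of E16. Erythroid cells of E16, in which globin genes took 816107 CPM, held 388 CPM of the 36 genes.

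The share of cells rich in these transcripts was measured after each cell had been thinned to 2000 UMIs. At least 5 UMIs of the 36 genes were found in 57.8% of radial glia in E14 (52.4 to 63.0), 67.4% in E16 (65.6 to 69.1) and 59.4% in E18 (57.0 to 61.7). Among intermediate progenitors the shares were 31.2% (27.1 to 35.5), 74.6% (70.2 to 78.8) and 36.5% (34.0 to 39.1). The intermediate progenitors of E16 thus held over 2 times the share of either other library, while the radial glia differed less. With at least 2000 genes and at most 5% mitochondrial UMIs, the share of E14 was 62.1% over far fewer cells (66), against 77.7% in E16 and 48.3% in E18. In maturing neurons of E14, 0 of 2163 thinned cells reached 5 UMIs, which allows a share of up to 0.139% by the limit of 3 counts and 0.170% by the exact interval, at a median depth of 13910 UMIs against 13291 in the radial glia of that library. In E16, 8.27% of 133 Cajal-Retzius cells did so, at a median of 8235 UMIs against 13642 in radial glia. Without thinning, the shares were 77.9%, 93.5% and 82.8% of radial glia, 39.9%, 90.9% and 52.4% of intermediate progenitors and 3.09% of maturing neurons of E14.

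**Figure D2:**
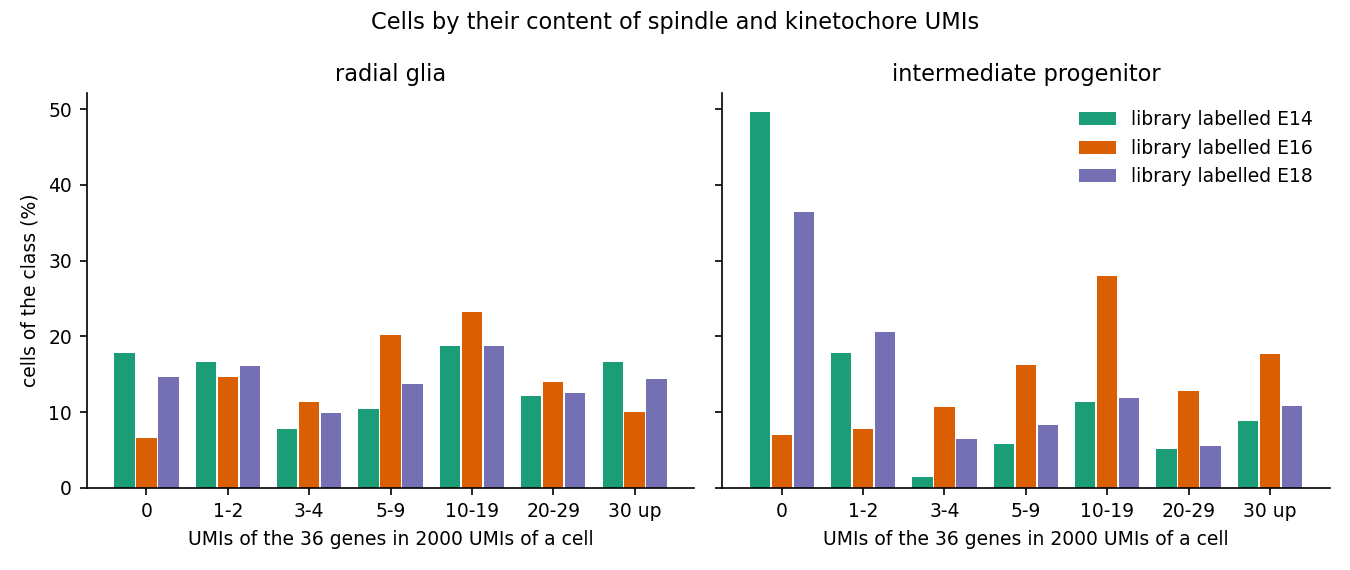
Percent of radial glia and of intermediate progenitors by the number of UMIs of the 36 genes among 2000 UMIs of the cell, in the 3 libraries. Cells with none make up 49.6% of intermediate progenitors in E14 and 36.4% in E18 but 7.0% in E16, where most cells lie at 5 or more.

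Cells without any UMI of the 36 genes made up 17.8%, 6.58% and 14.7% of radial glia and 49.6%, 7.0% and 36.4% of intermediate progenitors. Between 1 and 4 UMIs were found in 19.2%, 18.4% and 27.1% of intermediate progenitors. At a stricter limit of 10 UMIs, intermediate progenitors of E16 still held the highest share, while radial glia were nearly level: 47.4%, 47.2% and 45.7% of radial glia and 25.4%, 58.5% and 28.2% of intermediate progenitors reached it. Among all cells with at least 5 UMIs, radial glia made up 53.5% of 376 in E14, 72.7% of 2605 in E16 and 64.5% of 1594 in E18. Intermediate progenitors made up 40.2%, 11.9% and 32.1%. For each such radial glial cell there were 0.751 such intermediate progenitors in E14, 0.163 in E16 and 0.498 in E18.

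The make-up of the intermediate progenitor class moved with these levels. In E14, 215 of 486 cells lay in a cluster led by Efl1, Neurog2 and Eomes that held 167 CPM of the 36 genes and had 0 cells of E16. In E16, 226 of 419 cells lay in a cluster led by Gadd45g and H1f5, and 92 in a cluster led by Ube2c and Hmmr. In E18, 642 of 1402 cells lay in a cluster led by Ppp1r17, Mfap4 and Eomes that held 759 CPM. Within the cluster led by Gadd45g and H1f5, to which all libraries contributed, the sum was 8204 CPM (96 cells), 7555 CPM (226 cells) and 8643 CPM (343 cells), in label order. There E16 was the lowest of the 3 and not the highest. In the cluster led by Efl1 and Gadd45g the values were 742, 1199 and 596 CPM, and in that led by Ube2c they were 16432 CPM in E16 and 21615 CPM in E18. Of E14, 49 cells lay in the cluster led by Ube2c, below the minimum of 50 cells for a value. The 36 genes and the other cell cycle lists were kept out of the genes used for clustering. Genes outside these lists that vary with the cell cycle were not all kept out. Globin transcripts stood at 2462, 671 and 271 CPM in intermediate progenitors and at 94.2, 528 and 220 CPM in radial glia. The sum of 10 dissociation response genes stood at 870, 987 and 787 CPM in intermediate progenitors and at 584, 391 and 522 CPM in radial glia. Summed over 9 markers of maturing excitatory neurons, intermediate progenitors held 1049, 567 and 1079 CPM, lowest in E16, where the 36 genes were highest. The 7 markers of newborn excitatory neurons stood at 962, 1045 and 1440 CPM there. The part of these in the result was not tested.

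Cells at or above 5 UMIs of the 36 genes were also larger in total UMIs. In radial glia their median total was 14911, 15168 and 14195 UMIs, against 10718, 10209 and 9415 UMIs in cells with neither mitotic nor replication transcripts at that limit, ratios of 1.39, 1.49 and 1.51. In intermediate progenitors the ratios were 1.44, 1.79 and 1.57. Cells at the limit for the replication list alone lay between, at 13259, 12162 and 11839 UMIs in radial glia.

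**Figure D3:**
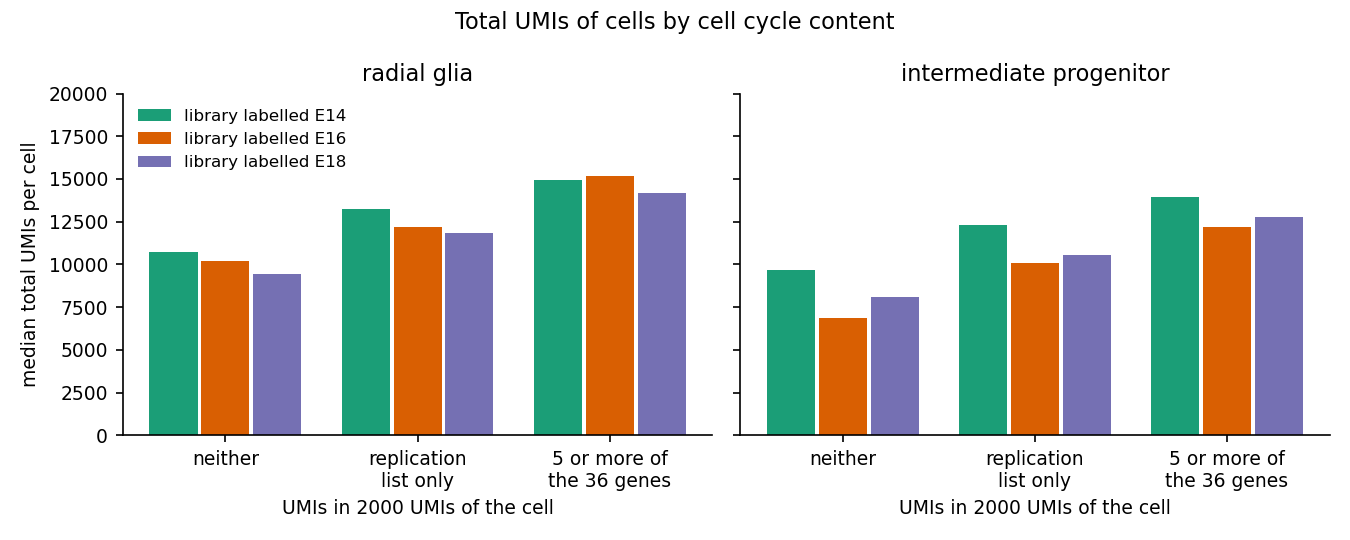
Median total UMIs per cell in radial glia and intermediate progenitors, by whether the cell held 5 or more UMIs of the 36 genes, 5 or more of the replication list only, or neither, among 2000 UMIs. In both classes and all 3 libraries the median is lowest in cells with neither and highest in cells with 5 or more UMIs of the 36 genes.

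Between libraries, the radial glia differed little in these genes. The sum was lower in E16 than in E14 by a log2 ratio of -0.26, lower in E18 than in E14 by -0.18 and higher in E18 than in E16 by 0.08. The median over all genes measured was -0.13, -0.06 and 0.07. The signs of these 3 ratios depended on how cells were filtered and clustered. With at least 500 genes and at most 20% mitochondrial UMIs, for example, E16 over E14 was 0.22. Only 1 of 36 genes in E16 over E14 lay past 2-fold in either direction, beside 9.99% of all 9884 genes measured. That gene was Ccnb2, and the count fell to 0 with the looser filter, with the cell cycle lists among the variable genes, with each library clustered on its own, with no doublets removed and with cell cycle scores regressed out. None of the 36 did so in E18 over E14 or in E18 over E16, beside 4.41% and 2.67% of all genes. At the ends of E16 over E14 lay Ccnb2 (-1.06), Prc1 (-0.70) and Ect2 (-0.56) below and Sgo1 (0.36), Ube2c (0.08) and Bub1 (0.04) above. In E18 over E14 these were Anln (-0.81), Ccnb2 (-0.64) and Cdk1 (-0.43) below and Sgo1 (0.27), Bub1 (0.07) and Tpx2 (0.06) above. In E18 over E16 they were Anln (-0.44), Ube2c (-0.16) and Spc24 (-0.16) below and Ccnb2 (0.42), Prc1 (0.41) and Kif2c (0.38) above.

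In intermediate progenitors all 36 genes were higher in E16 than in E14. E14 also stood apart in quality: 25.9% of its barcodes exceeded the mitochondrial limit and 27.5% fell below the gene limit, against 12.6% and 18.3% in E16 and 12.1% and 13.1% in E18. The summed log2 ratio was 0.90 and the median over the genes 0.85, beside -0.12 over all genes measured. Past 2-fold and higher were 9 of 36 genes, beside 3.33% of all genes: Anln, Ube2c, Hmmr, Cenpf, Ndc80, Sgo1, Bub1, Tpx2 and Cenpa. That count was 3 with the looser filter and 2 with cell cycle scores regressed out. The smallest differences were those of Kif23 (0.26), Ccnb2 (0.31) and Spc25 (0.48). In E18 over E14 the summed log2 ratio was 0.29, with 30 of 35 usable genes above 0 and none past 2-fold, beside 3.09% of all genes in either direction. Cenpe (0.59), Ndc80 (0.58) and Bub1b (0.55) were highest and Ccnb2 (-0.25), Spc24 (-0.24) and Kif23 (-0.07) lowest. In E18 over E16 it was -0.61, all 36 genes were lower, and Spc24 and Anln lay past 2-fold, beside 1.50% of all genes lower past 2-fold. Ube2c followed at -0.96, and Cenpe (-0.17), Bub1b (-0.32) and Kif23 (-0.33) differed least. The count of 2 ranged from 0 to 8 over the alternatives. E16 over E14 stayed between 0.63 and 0.92 under every alternative tried. E18 over E14 turned to -0.19 with at least 2000 genes and at most 5% mitochondrial UMIs.

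**Figure D4:**
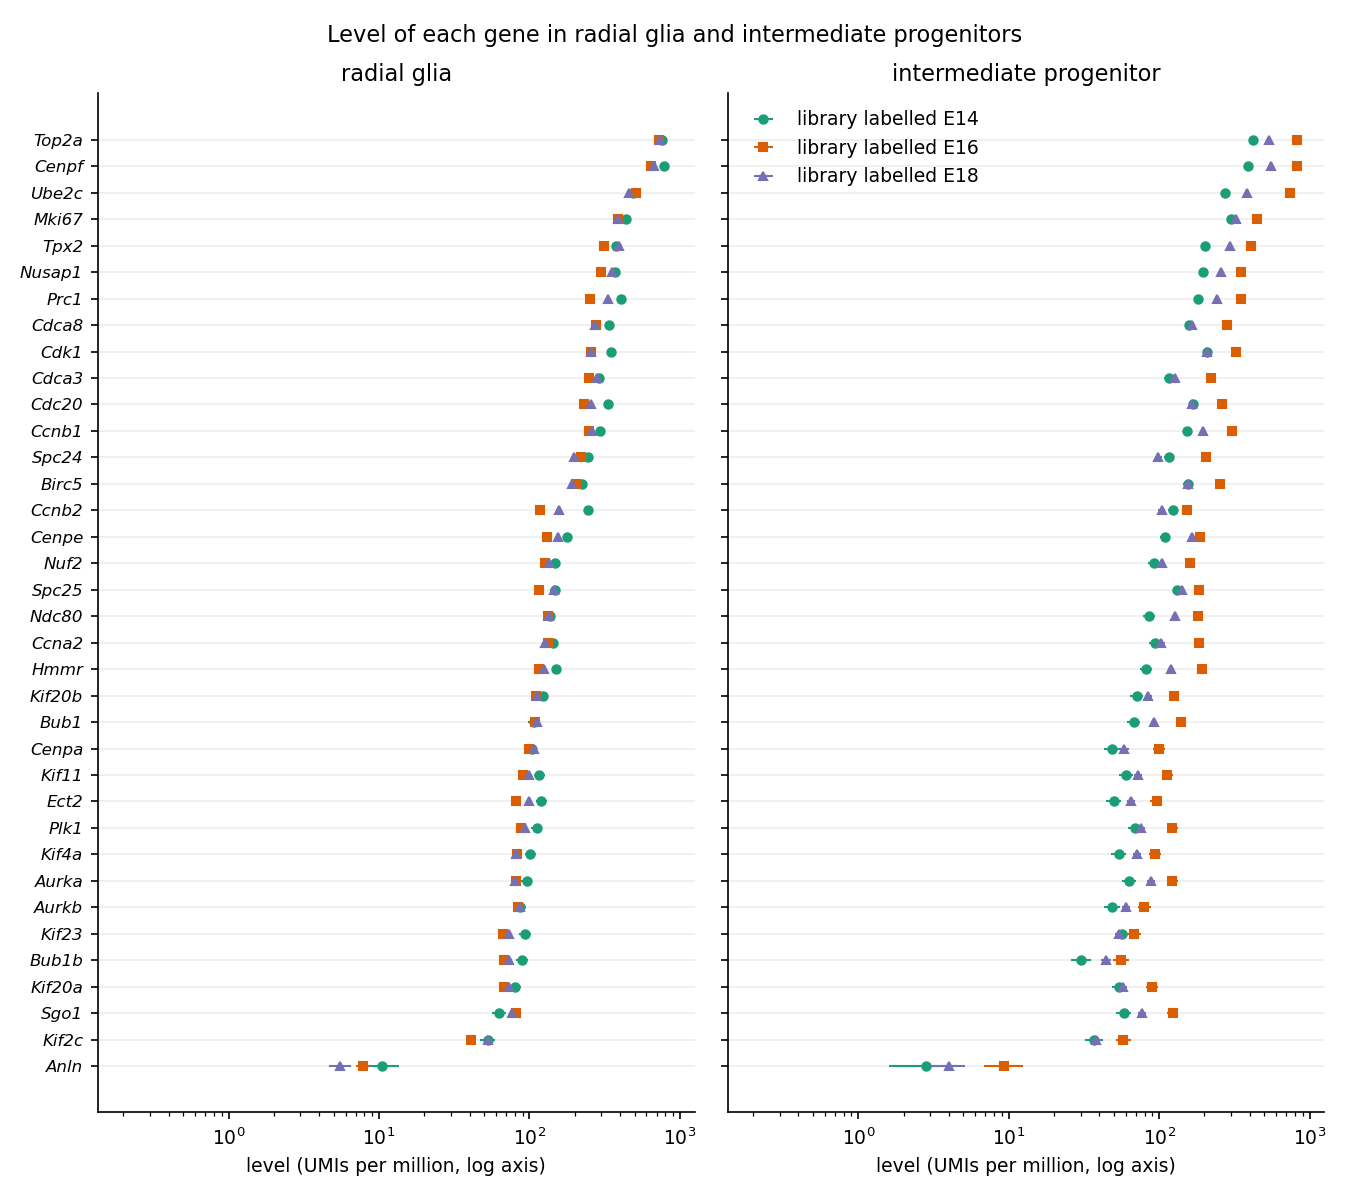
Level of each of the 36 genes in CPM (log axis) in radial glia and intermediate progenitors, with exact Poisson 95% intervals, 1 symbol per library. In intermediate progenitors E16 is the highest library for every gene, from Anln at 9.30 CPM to Top2a at 829 CPM, whereas in radial glia the 3 symbols lie close together except for genes such as Ccnb2.

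Cyclins and their kinase came first in the sequence of entry. Ccnb2, a B-type cyclin that activates Cdk1, was the gene that differed most in radial glia of E16 over E14. It stood at 245 CPM (232 to 259) in E14, 117 CPM (114 to 120) in E16 and 156 CPM (151 to 161) in E18, with no overlap of intervals. Its log2 ratio was -1.06 in E16 over E14, -0.64 in E18 over E14 and 0.42 in E18 over E16. In intermediate progenitors it stood at 124, 154 and 104 CPM, and its log2 ratio of 0.31 in E16 over E14 was among the 3 lowest of the 36. Set against the other members, Ccnb2 took 2.98% of the 36 genes' UMIs in radial glia of E14, 1.70% in E16 and 2.15% in E18, and 2.74%, 1.82% and 1.88% in intermediate progenitors. Its share was thus highest in E14 in both classes. Its share in radial glia of E16 was lower than in E14 by a log2 ratio of -0.81, and between -0.996 and -0.78 over the 8 alternatives of cells and clustering. In intermediate progenitors the corresponding ratio was -0.59 and ran from -0.66 to -0.039 over the same alternatives. Ccnb1, the other B-type cyclin, did not share this pattern to the same size, at 295, 248 and 260 CPM in radial glia and 154, 305 and 197 CPM in intermediate progenitors.

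Cdk1, the kinase itself, stood at 347, 257 and 258 CPM in radial glia and 209, 323 and 206 CPM in intermediate progenitors. Its log2 ratio of -0.43 in E18 over E14 was among the 3 lowest in radial glia. Ccna2, the A-type cyclin of S and G2 phase, stood at 144, 132 and 126 CPM and at 93.9, 184 and 103 CPM. Its share of the 36 genes was higher in intermediate progenitors than in radial glia of all 3 libraries, by log2 ratios of 0.24, 0.18 and 0.11.

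Top2a, the topoisomerase that untangles chromosomes, stood at 762, 733 and 736 CPM in radial glia, nearly level. In intermediate progenitors it stood at 420, 829 and 541 CPM. Mki67, which coats mitotic chromosomes and is used as a proliferation antigen, stood at 438, 386 and 387 CPM and at 299, 450 and 324 CPM.

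The mitotic kinases varied less in radial glia than in intermediate progenitors. Plk1, which drives centrosome maturation and mitotic entry, stood at 112, 87.3 and 93.6 CPM in radial glia and 68.7, 122 and 76.2 CPM in intermediate progenitors. Aurka, the kinase of spindle poles, stood at 95.7, 81.6 and 80.0 CPM and at 63.4, 122 and 88.3 CPM. Its share was higher in intermediate progenitors in all 3 libraries, by log2 ratios of 0.26, 0.28 and 0.54, although the first turned to -0.29 under the stricter cell filter. Aurkb, the kinase of the chromosomal passenger complex, stood at 86.0, 83.8 and 86.8 CPM and at 48.7, 79.7 and 60.3 CPM.

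Kinetochore subunits parted between the classes. Ndc80, Nuf2, Spc24 and Spc25 form the NDC80 complex, the rod that grips spindle microtubules, with Spc24 and Spc25 as the pair that anchors it to the inner kinetochore. Spc24 took 2.98%, 3.23% and 2.74% of the 36 genes' UMIs in radial glia, and 2.57%, 2.42% and 1.78% in intermediate progenitors. Spc25 took 1.80%, 1.70% and 1.99% in radial glia, and 2.92%, 2.19% and 2.56% in intermediate progenitors. In every library the share of Spc24 was lower and that of Spc25 higher in intermediate progenitors. The log2 ratios of the shares were -0.21, -0.41 and -0.62 for Spc24 and 0.70, 0.37 and 0.36 for Spc25, and no counting interval reached 0. For Spc25 the direction held in all 8 alternatives in each library. For Spc24 it turned to 0.66 in E14 and 0.07 in E18 under the stricter cell filter, and to 0.10 in E18 with each library clustered on its own. Spc24 also lay at an end of the comparisons of intermediate progenitors, at 116, 205 and 98.5 CPM, with a log2 ratio of -1.05 in E18 over E16.

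Ndc80 was the subunit next to Spc25 in direction, with shares higher in intermediate progenitors by 0.18, 0.14 and 0.32 and levels of 85.3, 181 and 128 CPM there. Nuf2, its direct partner, had log2 ratios of 0.17, 0.04 and 0.02, of which the last 2 intervals included 0. Cenpe, a kinetochore motor that carries chromosomes to the spindle equator, stood at 179, 130 and 155 CPM in radial glia and 110, 186 and 165 CPM in intermediate progenitors. Its log2 ratio of 0.59 was the highest of the 36 in E18 over E14 of intermediate progenitors. Cenpf, a large protein of the outer kinetochore, stood at 790, 648 and 669 CPM and at 389, 829 and 552 CPM. Cenpa, the histone variant that marks centromeres, stood at 104, 99.0 and 108 CPM and at 48.7, 99.5 and 58.7 CPM, and its share was lower in intermediate progenitors by -0.23, -0.29 and -0.48. Over the 8 alternatives these ratios ran from -1.56 to -0.11 in E14, from -0.33 to -0.18 in E16 and from -1.35 to -0.46 in E18.

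**Figure D5:**
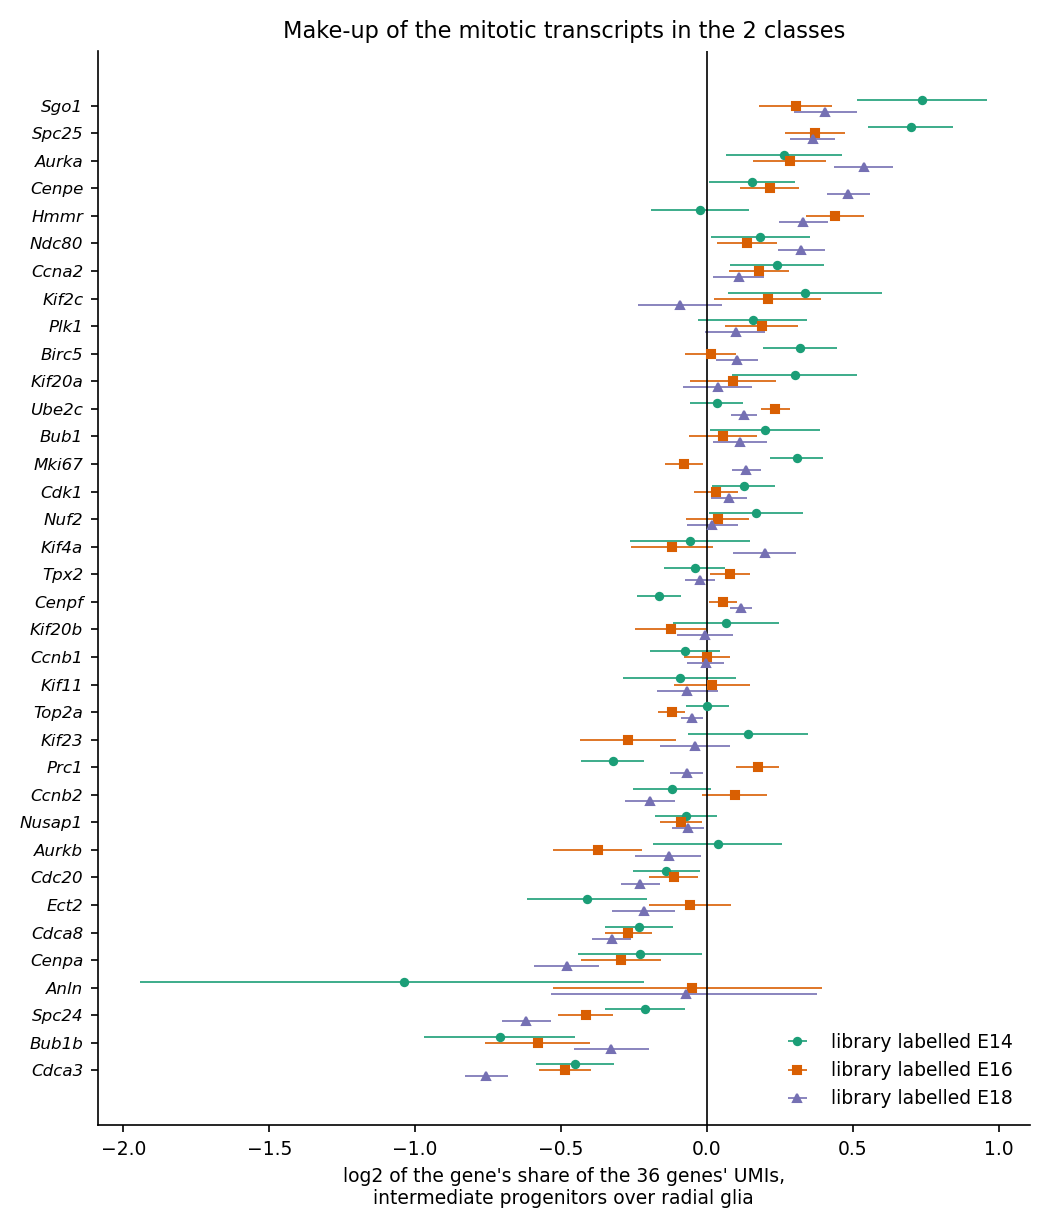
Log2 ratio of each gene's share of the 36 genes' UMIs, intermediate progenitors over radial glia, with exact 95% intervals for counting error, 1 symbol per library, ordered by the mean. Sgo1 and Spc25 lie at the upper end and Cdca3, Bub1b and Spc24 at the lower end, and 14 genes change sign between libraries.

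Over the whole list, the share was higher in intermediate progenitors in all 3 libraries for 13 genes, lower in all 3 for 9 and of mixed sign for 14. By the intervals for counting error, which had to lie on the same side of 0 in all 3 libraries, 6 were higher, 6 lower and 24 neither. Over the alternatives of cells and clustering these counts ran from 4 to 7 higher and from 3 to 5 lower. Of the genes counted, Cenpe and Aurka turned to -0.28 and -0.29 and Spc24 to 0.66 in E14 with the stricter filter, and Spc24 turned to 0.10 in E18 with each library clustered on its own. The level of the list as a whole in intermediate progenitors was 0.551 times that of radial glia in E14, 1.23 times in E16 and 0.761 times in E18, or log2 ratios of -0.86, 0.30 and -0.39. Only that of E14 kept its direction under all 8 alternatives, from -0.84 to -0.19. That of E16 turned to -0.20 with the looser filter, and that of E18 to 0.13 with no doublets removed and 0.068 with cell cycle scores regressed out. Genes lower past 2-fold in intermediate progenitors numbered 9 of 36 in E14, beside 8.50% of all genes, 0 of 36 in E16, beside 6.43%, and 2 of 36 in E18, beside 7.40%. The 9 in E14 were Anln, Bub1b, Cdca3, Ect2, Prc1, Cdca8, Cenpa, Spc24 and Cenpf, and the 2 in E18 were Cdca3 and Spc24. Over the alternatives the count ran from 1 to 11 in E14 and from 0 to 13 in E18. The genes singled out from the comparison of shares, here and for Spc24 and Spc25 above, were chosen after their values had been seen.

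Of the spindle checkpoint genes, Bub1b, the checkpoint protein BubR1 that blocks Cdc20, stood at 89.3, 67.9 and 73.6 CPM in radial glia and 30.1, 56.0 and 44.6 CPM in intermediate progenitors. Its share was lower in intermediate progenitors by -0.71, -0.58 and -0.33, in the same direction under all 8 alternatives. Bub1, the kinase that recruits checkpoint proteins to kinetochores, stood at 107, 110 and 112 CPM in radial glia and 67.6, 140 and 92.5 CPM in intermediate progenitors. Its log2 ratios of shares were 0.20, 0.06 and 0.11, and the interval of that in E16 included 0.

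Sgo1, shugoshin, shields centromeric cohesin until anaphase. It stood at 63.1, 81.0 and 76.1 CPM in radial glia, lowest in E14, which was the reverse of most members. Its log2 ratio of 0.36 in E16 over E14 and of 0.27 in E18 over E14 was the highest of the 36 in radial glia. In intermediate progenitors Sgo1 stood at 58.0, 123 and 76.8 CPM, and its share was higher there than in radial glia by 0.74, 0.30 and 0.41. That direction held under all 8 alternatives. Birc5 (survivin) and Cdca8 (borealin) belong to the chromosomal passenger complex, which corrects faulty attachments. Birc5 stood at 225, 204 and 191 CPM in radial glia and 155, 254 and 156 CPM in intermediate progenitors. Cdca8 stood at 338, 277 and 274 CPM and at 158, 282 and 166 CPM, and its share was lower in intermediate progenitors by -0.23, -0.27 and -0.33.

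Among genes of spindle assembly, Prc1 crosslinks the antiparallel microtubules of the central spindle. Prc1 stood at 409 CPM (E14), 252 CPM (E16) and 335 CPM (E18) in radial glia, with log2 ratios of -0.70 in E16 over E14 and 0.41 in E18 over E16. In intermediate progenitors it stood at 181, 351 and 243 CPM. It was thus among the 3 lowest genes in radial glia of E16 over E14, but not at either end of the list in intermediate progenitors, with a log2 ratio of 0.95. Hmmr, a spindle pole protein, stood at 151, 115 and 125 CPM in radial glia and 82.0, 192 and 120 CPM in intermediate progenitors, where its log2 ratio of 1.22 in E16 over E14 was among the 3 highest. Tpx2, which activates Aurora A and seeds microtubules, stood at 377, 316 and 393 CPM and at 202, 410 and 294 CPM. Nusap1, which binds microtubules near chromosomes, stood at 372, 301 and 356 CPM and at 195, 349 and 259 CPM.

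The 6 kinesin motors were each lower in radial glia and higher in intermediate progenitors of E16 than in those of E14. The same held for 33 of the 36 genes in radial glia and for all 36 in intermediate progenitors. Kif11 (Eg5), which pushes spindle poles apart, stood at 116, 91.2 and 100 CPM in radial glia and 60.2, 114 and 72.6 CPM in intermediate progenitors. Kif23 (MKLP1), a motor of the central spindle, stood at 93.6, 67.1 and 73.5 CPM and at 56.9, 68.5 and 54.4 CPM. Its log2 ratio of 0.26 was the lowest of the 36 in E16 over E14 of intermediate progenitors. Kif2c, which depolymerises microtubules at centromeres, stood at 52.8, 40.7 and 53.1 CPM and at 36.8, 57.8 and 37.9 CPM. Kif4a, Kif20a and Kif20b, motors of chromosome arms, central spindle and cytokinesis, ranged from 68.2 to 123 CPM in radial glia and from 53.8 to 126 CPM in intermediate progenitors.

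For cytokinesis, Ect2, the exchange factor that activates RhoA at the equator, stood at 120, 81.2 and 99.5 CPM in radial glia and 49.9, 96.0 and 65.2 CPM in intermediate progenitors. Its log2 ratio of -0.56 was among the 3 lowest in E16 over E14 of radial glia. Anln, the ring scaffold anillin, was rare, with 55, 343 and 137 UMIs in radial glia and 16, 46 and 60 UMIs in intermediate progenitors. At 10.4, 7.83 and 5.51 CPM and at 2.80, 9.30 and 3.99 CPM, its log2 ratios are the least certain of the 36. In E16 over E14 of intermediate progenitors the log2 ratio was 1.44 with 1 CPM added and 1.73 (0.88 to 2.65) without.

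Partners of the anaphase-promoting complex included Ube2c, whose share stood out in E16. Ube2c, the ubiquitin-conjugating enzyme of the complex, took 5.93%, 7.48% and 6.32% of the 36 genes' UMIs in radial glia and 6.08%, 8.81% and 6.90% in intermediate progenitors. Its share was highest in E16 in both classes. Its levels were 487, 514 and 459 CPM in radial glia and 275, 744 and 381 CPM in intermediate progenitors, with log2 ratios of 1.43 in E16 over E14 and -0.96 in E18 over E16 in the latter. Cdc20, the activator of the complex that the checkpoint restrains, stood at 335, 230 and 256 CPM and at 168, 262 and 167 CPM. Cdca3, a trigger of mitotic entry that acts through an ubiquitin ligase, stood at 290, 251 and 282 CPM in radial glia and 117, 220 and 127 CPM in intermediate progenitors. The share of Cdca3 was lower in intermediate progenitors by -0.45, -0.49 and -0.76, in the same direction under all 8 alternatives.

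The ratio of the 36 genes to replication genes shifted more between libraries than the balance within the list. For each UMI of 33 replication genes, radial glia held 2.92, 1.93 and 2.13 UMIs of the 36 genes, and intermediate progenitors 1.82, 2.26 and 1.95. Radial glia thus ranked E14 highest and E16 lowest, and intermediate progenitors the reverse. With at least 500 genes and at most 20% mitochondrial UMIs the radial glia of E16 held 2.67 and those of E18 2.18, so the lowest place is not firm. In intermediate progenitors E14 and E18 fell to 1.18 and 1.26 under the stricter filter. With each library clustered on its own, they held 1.81 in E14, 2.35 in E16 and 1.12 in E18, so the lowest place passed to E18. The replication list itself stood at 2818, 3567 and 3403 CPM in radial glia and 2494, 3732 and 2838 CPM in intermediate progenitors. It also stood at 510 CPM in maturing excitatory neurons of E14 and 781 CPM in Cajal-Retzius cells of E16. The 36 genes held 90.1 and 592 CPM there. In the E14 intermediate progenitors led by Efl1, Neurog2 and Eomes it stood at 868 CPM, against 167 CPM of the 36 genes. The part of cells outside the cell cycle in these ratios was not tested. Of the UMIs of 3 genes that rise first (Cdk1, Ccna2, Top2a) and 6 that peak at mitosis (Ccnb1, Plk1, Cdc20, Aurka, Cenpa, Cenpe), the late genes made up 47.2%, 43.9% and 46.0% in radial glia and 45.9%, 45.1% and 46.9% in intermediate progenitors. That share varied more between clusters of 1 library than between libraries, from 34.8% in the H4f3-led radial glia of E16 to 60.8% in the Ung-led ones. It does not follow the level of the list, which was 7089 CPM in the H4f3-led cells and 1854 CPM in the Ung-led cells, while the radial glia of E16 led by Ube2c held 13208 CPM with a late share of 51.8%.

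A wider list of 64 other mitotic genes went the same ways. Its summed log2 ratios in radial glia were -0.19 in E16 over E14, -0.13 in E18 over E14 and 0.06 in E18 over E16. Past 2-fold lay 1, 1 and 0 of the 64 genes, beside 9.99%, 4.41% and 2.67% of all genes in either direction. In intermediate progenitors the summed log2 ratios were 0.79, 0.21 and -0.58. There 13 of the 64 genes were higher past 2-fold in E16 over E14, beside 3.33% of all genes. In E18 over E14 0 lay past 2-fold, beside 3.09% in either direction. In E18 over E16 3 were lower past 2-fold, beside 1.50%. In E16 over E14 of radial glia, Cdkn3, a phosphatase of cyclin-dependent kinases, and Pimreg were lowest at -1.04 and -0.96, and Nsl1 and Kntc1, kinetochore subunits, highest at 0.76 and 0.69. In E18 over E14, Kpna2 and Pimreg were lowest at -1.09 and -0.63 and Nsl1 and Kntc1 highest at 0.57 and 0.56. In E18 over E16, Kpna2 and Hjurp were lowest at -0.38 and -0.26 and Ska1 and Cdkn3 highest at 0.67 and 0.53. Cdkn3 followed the order of Ccnb2, with 304, 148 and 213 CPM in label order.

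In intermediate progenitors, Cks2, which binds cyclin-dependent kinases, and Depdc1 were highest in E16 over E14 at 1.39 and 1.29, and Ska1 and Mis12, both of the kinetochore, lowest at 0.13 and 0.22. In E18 over E14, Cdc25c and Kif15 were highest at 0.79 and 0.69 and Hjurp and Kpna2 lowest, both at -0.25. In E18 over E16, Kpna2 and Cenpw were lowest at -1.10 and -1.09 and Bub3 and Mis12 least low at -0.16 and -0.14. The 11 regulators of these promoters had summed log2 ratios of 0.15, 0.09 and -0.06 in radial glia and 0.51, 0.12 and -0.39 in intermediate progenitors. None lay past 2-fold, beside 2.67% to 9.99% of all genes in radial glia and 3.09% to 11.5% in intermediate progenitors. Mybl2 (B-Myb) stood at 35.7, 52.0 and 47.9 CPM in radial glia and Foxm1 at 32.9, 32.4 and 35.9 CPM. In intermediate progenitors Mybl2 stood at 30.1, 43.7 and 37.0 CPM and Foxm1 at 27.8, 44.7 and 29.1 CPM.

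Within radial glia most members were correlated from cell to cell. Over the 630 pairs of the 36 genes, the median Pearson correlation of log-normalized values at 2000 UMIs per cell was 0.249 in 348 cells of E14, 0.140 in 2810 cells of E16 and 0.208 in 1732 cells of E18. These cells share a library and a depth, and the values are given as a description. The pair with the highest mean was Top2a and Ube2c, at 0.659, 0.538 and 0.580. At the other end lay pairs with Anln, near 0. Of 4363 genes outside the lists, those most like the sum of the 36 in the library where they were least like it were Arl6ip1, Hmgb2, Tubb4b, H2ax, Calm2, Tubb5, Sgo2, H1f10, Ube2s and Knstrn. Arl6ip1 reached 0.579, 0.538 and 0.567 and Hmgb2, a chromatin protein, 0.720, 0.522 and 0.691. Tubb4b and Tubb5, both beta-tubulins, reached 0.657, 0.506 and 0.638 and 0.457, 0.362 and 0.461.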

How the data were processed

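Single-cell RNA of the embryonic rat cerebral cortex was measured in 3 libraries, 1 per label. The deposited matrices hold raw counts of UMIs per gene and cell barcode; per the submitters' processing notes they come from Cell Ranger 6.0.1 and genome build mRatBN7.2. The libraries held 62740631, 80974234 and 73727823 UMIs in 7100, 6707 and 6937 barcodes in label order. The 36 genes, the other lists and the alternatives were chosen with earlier results of these data known.

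Barcodes with at least 1000 genes and at most 10% mitochondrial UMIs were kept (4444, 5193 and 5690), and the highest Scrublet doublet scores were removed at 0.8% per 1000 cells (158, 216 and 259 cells). Values were scaled to 10000 UMIs per cell and log-transformed. All libraries were clustered together, without integration, on 2000 variable genes that held none of the cell cycle lists, with 30 components, 15 neighbours and Leiden resolution 1 (Scanpy 1.11.5, leidenalg 0.10.2, Python 3.11.15). Clusters were named after the class whose markers were raised most on average (log2 fold with 10 CPM added), provided that at least 3 were raised 1.2-fold and found in 20% of cells. A name was dropped where another class held more of the 10 leading genes above 50 CPM. Of 31 clusters, 27 were named. The fixed reference level of that rule was set after clusters had lost their names under alternatives.

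UMIs were summed per class and library over classes of at least 50 cells. Log2 ratios of single genes add 1 CPM and cover genes of at least 5 CPM on average, so they understate changes of rare genes. Intervals are exact Poisson, Clopper-Pearson or conditional binomial ones at 95%, a count of 0 is limited by 3 counts, and the precision of a gene follows its UMIs. For the shares, cells were thinned to 2000 UMIs, which left out 5, 19 and 16 radial glia and 2, 5 and 1 intermediate progenitors as too shallow. All 36 genes are accounted for; the 3 highest and lowest ratios of each comparison, 2 of the other mitotic genes at each end and the 10 most similar genes were named by rule. Calculations were tested on simulated data. Alternatives changed the cell filter, resolution, variable genes, joint clustering, doublet removal, thinning, UMI limit, added CPM and CPM minimum.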

Additional observations from a re-analysis of the deposited data

Results flagged for a closer look

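The summed level of the 36 genes moved in opposite directions in the progenitor classes between the same libraries. In E16 over E14 the log2 ratio was -0.26 in radial glia and 0.90 in intermediate progenitors. In E18 over E14 it was -0.18 and 0.29, and in E18 over E16 it was 0.080 and -0.61. The difference between the classes was not tested, since each label has 1 library, and the ratios of radial glia changed sign under other settings.

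Barcodes left out by the cell filter also carried these transcripts, at 698 CPM in E14 (2656 barcodes), 2590 CPM in E16 (1514 barcodes) and 2778 CPM in E18 (1247 barcodes). Among the barcodes kept, over all classes, the sums were 1431, 5647 and 4257 CPM.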

How the results depend on the processing

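No paired analysis was possible because each label has 1 library. The higher level of intermediate progenitors in E16 than in E14 kept its direction under every alternative run, at a log2 ratio of 0.63 to 0.92, and so did its lower level in E18 than in E16, at -0.82 to -0.20. The log2 ratios of radial glia did not keep theirs. Among summary values, 127 stayed within counting error, or for counts within 1.5 times, 146 moved and 13 reversed; among values of single genes 782 stayed, 946 moved and none past 2-fold reversed. The cause of these moves was not tested. Anln, with 16 to 343 UMIs per class and library, has the widest intervals. E14 gave the fewest radial glia (353) and E16 the fewest intermediate progenitors (419).

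The moved and reversed values follow for radial glia (RG) and intermediate progenitors (IP). The ratios of IP over RG were put through these alternatives after seeing the data. With at least 2000 genes and at most 5% mitochondrial UMIs, the share of transcript-rich cells moved to 66.0% (E14) and 71.9% (E16) in RG and 62.1% (E14) and 48.3% (E18) in IP. The log2 ratio of the sum moved to -0.25 (E18 over E14) and 0.016 (E18 over E16) in RG and 0.63 (E16 over E14), -0.19 (E18 over E14) and -0.81 (E18 over E16) in IP. Member UMIs per replication UMI moved to 2.08 (E16) and 2.17 (E18) in RG and 1.18 (E14), 2.39 (E16) and 1.26 (E18) in IP. IP over RG moved to a log2 ratio of -0.59 (E14) and -0.53 (E18). The members lower past 2-fold in IP than in RG became 5 (E18). The number of members past 2-fold became 8 (E18 over E16) in IP. With at least 500 genes and at most 20% mitochondrial UMIs, the share of transcript-rich cells moved to 86.9% (E16) in RG and 35.8% (E14), 64.7% (E16) and 44.7% (E18) in IP. For the sum, the log2 ratio was 0.22 (E16 over E14), -0.046 (E18 over E14) and -0.26 (E18 over E16) in RG and 0.71 (E16 over E14), 0.51 (E18 over E14) and -0.20 (E18 over E16) in IP. Per replication UMI, the member UMIs numbered 2.83 (E14), 2.67 (E16) and 2.18 (E18) in RG and 1.97 (E18) in IP. For IP over RG, the log2 ratio was -0.69 (E14), -0.20 (E16) and -0.14 (E18). Lower past 2-fold in IP than in RG, the members numbered 4 (E14) and 0 (E18). Past 2-fold, the members numbered 0 (E16 over E14) in RG and 3 (E16 over E14) and 0 (E18 over E16) in IP. At Leiden resolution 0.5, the share of transcript-rich cells moved to 44.2% (E18) in IP. The log2 ratio of the sum moved to 0.067 (E18 over E16) in RG and 0.55 (E18 over E14) and -0.37 (E18 over E16) in IP. Member UMIs per replication UMI moved to 2.80 (E14), 1.91 (E16) and 2.08 (E18) in RG and 1.90 (E14), 2.36 (E16) and 2.05 (E18) in IP. IP over RG moved to a log2 ratio of -0.80 (E14), 0.37 (E16) and -0.070 (E18). The members lower past 2-fold in IP than in RG became 0 (E18). The number of members past 2-fold became 0 (E18 over E16) in IP. At Leiden resolution 2, the share of transcript-rich cells moved to 70.5% (E16) in RG. For the sum, the log2 ratio was -0.24 (E16 over E14), -0.14 (E18 over E14) and 0.096 (E18 over E16) in RG. Per replication UMI, the member UMIs numbered 1.88 (E16) in RG. With the cell cycle lists among the variable genes, the share of transcript-rich cells moved to 51.8% (E14) and 86.9% (E16) in RG and 36.04% (E14) and 40.6% (E18) in IP. The log2 ratio of the sum moved to 0.14 (E16 over E14), -0.064 (E18 over E14) and -0.20 (E18 over E16) in RG and 0.32 (E18 over E14) in IP. Member UMIs per replication UMI moved to 2.57 (E16) and 2.15 (E18) in RG and 2.64 (E16) and 1.99 (E18) in IP. For IP over RG, the log2 ratio was -0.67 (E14), 0.11 (E16) and -0.29 (E18). Lower past 2-fold in IP than in RG, the members numbered 4 (E14) and 1 (E18). Past 2-fold, the members numbered 0 (E16 over E14) in RG. With each library clustered on its own, the share of transcript-rich cells moved to 49.6% (E14), 73.1% (E16) and 63.6% (E18) in RG and 60.9% (E16) and 39.6% (E18) in IP. For the sum, the log2 ratio was 0.0076 (E16 over E14), 0.16 (E18 over E14) and 0.15 (E18 over E16) in RG and 0.87 (E16 over E14), 0.054 (E18 over E14) and -0.82 (E18 over E16) in IP. Per replication UMI, the member UMIs numbered 2.79 (E14), 2.06 (E16) and 2.52 (E18) in RG and 2.35 (E16) and 1.12 (E18) in IP. IP over RG moved to a log2 ratio of -0.81 (E14), 0.048 (E16) and -0.92 (E18). The members lower past 2-fold in IP than in RG became 13 (E18). Shares lower in IP by interval in all 3 libraries became 3. The number of members past 2-fold became 0 (E16 over E14) in RG and 2 (E18 over E14) and 7 (E18 over E16) in IP. With no doublets removed, the share of transcript-rich cells moved to 79.0% (E16) and 51.3% (E18) in IP. The log2 ratio of the sum moved to -0.023 (E16 over E14), -0.046 (E18 over E14) and -0.024 (E18 over E16) in RG and 0.62 (E18 over E14) and -0.26 (E18 over E16) in IP. Member UMIs per replication UMI moved to 2.71 (E14), 1.95 (E16) and 2.06 (E18) in RG and 1.90 (E14), 2.43 (E16) and 2.05 (E18) in IP. For IP over RG, the log2 ratio was -0.54 (E14), 0.37 (E16) and 0.13 (E18). Lower past 2-fold in IP than in RG, the members numbered 2 (E14) and 0 (E18). Past 2-fold, the members numbered 0 (E16 over E14) in RG and 0 (E18 over E16) in IP. With cell cycle scores regressed out, chosen after seeing the data, the share of transcript-rich cells moved to 45.2% (E14) and 54.7% (E18) in RG and 40.5% (E14) and 47.1% (E18) in IP. For the sum, the log2 ratio was 0.024 (E16 over E14), 0.027 (E18 over E14) and 0.0032 (E18 over E16) in RG and 0.63 (E16 over E14) and -0.34 (E18 over E16) in IP. Per replication UMI, the member UMIs numbered 2.63 (E14), 1.89 (E16) and 2.03 (E18) in RG and 2.07 (E14), 2.42 (E16) and 2.18 (E18) in IP. IP over RG moved to a log2 ratio of -0.19 (E14), 0.41 (E16) and 0.068 (E18). The members lower past 2-fold in IP than in RG became 1 (E14) and 0 (E18). The number of members past 2-fold became 0 (E16 over E14) in RG and 2 (E16 over E14) and 0 (E18 over E16) in IP. With a limit of 3 UMIs in 2000, the share of transcript-rich cells moved to 65.5% (E14), 78.8% (E16) and 69.2% (E18) in RG and 85.3% (E16) and 43.0% (E18) in IP. With a limit of 10 UMIs in 2000, the share of transcript-rich cells moved to 47.4% (E14), 47.2% (E16) and 45.7% (E18) in RG and 25.4% (E14), 58.5% (E16) and 28.2% (E18) in IP. With a limit of 3 UMIs in 1000, the share of transcript-rich cells moved to 64.5% (E16) in RG. With 5 CPM added, past 2-fold, the members numbered 1 (E18 over E16) in IP. With a minimum of 20 CPM, the number of members past 2-fold became 1 (E18 over E16) in IP.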
